A study of Mus musculus with 12 samples.

Results

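The genes described here are 41 genes of DNA replication and S phase, out of 48795 genes listed for each library of a study of C2C12 cells. They were chosen by name and matched by symbol to the Ensembl gene IDs of the RSEM tables, with earlier results of these data known although the matching itself uses no measured value, and all 41 passed the filter on low counts that left 14838 genes for testing. They fall into 8 roles: 10 genes of origin licensing, 6 of helicase activation, 5 of the sliding clamp and its loader, 5 of the polymerases and primase, 2 of Okazaki fragment joining, 5 of nucleotide supply, 3 of chromatin assembly and methylation copying and 5 of G1/S control.

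C2C12 is a mouse myoblast line that fuses into myotubes when serum is reduced, and the growth protocol describes 5 days of differentiation in horse serum, although the cell type tag reads myoblasts. The study asked whether gRc (ginsenoside Rc, a ginseng saponin) alters the response of these cells to hydrogen peroxide. Poly(A)-selected RNA was sequenced from 4 groups of 3 libraries each. The gRc+H2O2 group received 10 µM gRc for 18 h and then 0.25 mM H2O2 for 6 h, though a tag on its libraries gives 24 h of gRc pretreatment. The H2O2 group received vehicle for 18 h and then 0.25 mM H2O2 for 6 h, the gRc group 10 µM gRc for 24 h, and the vehicle group vehicle (DMSO) for 24 h. The cell line is 1 line throughout, and nothing in the labels ties the replicates to separate cultures. The p-values therefore rest on library-to-library variation that could be purely technical.

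Before S phase, the origin recognition complex with Cdc6 and Cdt1 loads the MCM helicase, a ring built of the subunits Mcm2 to Mcm7, onto origins. Cyclin E with Cdk2 and the E2F factors then open S phase, Cdc45 and the GINS complex switch the helicase on, and polymerases working with the clamp Pcna copy the strands while nucleotide enzymes keep up the supply of building blocks and Chaf1 and Uhrf1 restore chromatin and DNA methylation behind the fork. Myotube nuclei have left the cell cycle, and differentiated C2C12 cultures also hold unfused reserve cells that can cycle.

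Total expected counts ran from 19274762 to 31409066 per library. Principal components of all genes tested placed 3 libraries apart on the first axis (42.0% of variance), vehicle replicate 1 opposite vehicle replicate 3 and gRc replicate 3. The second axis (30.8%) separated the 6 libraries with H2O2 from the 6 without. Of the 41 genes 19 (46.3%) were lower in both vehicle replicate 3 and gRc replicate 3 than in any of the other 4 libraries without H2O2, a position held by 28.7% of all genes tested, and 7 (17.1%) were higher in both, beside 31.1%. The helicase subunit gene Mcm3 shows the first kind, at 52.6, 56.1 and 23.3 CPM in gRc replicates 1, 2 and 3 and 57.3, 47.9 and 25.3 CPM in vehicle (CPM, counts scaled by library size and TMM factors). Defining markers of differentiated muscle were abundant in every group, with Myh3, the embryonic myosin heavy chain, at 2321, 2288 and 3417 CPM in gRc+H2O2, 3273, 2676 and 3472 CPM in H2O2, 5255, 6270.1 and 3263 CPM in gRc and 5507, 5326 and 2773 CPM in vehicle.

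Levels were compared between genes per length, in TPM (RSEM's abundance per length, scaled to the same total in every library), in the vehicle libraries. Rrm2 and Rrm1 stood highest: these small and large subunits of ribonucleotide reductase averaged 136 ± 41.1 and 104 ± 29.2 TPM (SD, n = 3), with overlapping ranges. Pcna followed at 50.02 ± 27.9 TPM and Mcm7 at 48.5 ± 11.3 TPM. The lowest were Orc1, a subunit of the origin recognition complex, at 1.21 ± 0.321 TPM and the licensing ATPase Cdc6 at 3.68 ± 0.649 TPM. Within the other roles the TPM range ran between Gins4 (31.97 ± 9.03) and Gins1 (3.99 ± 0.919) for helicase activation, and between E2f2 (43.4 ± 12.3) and Ccne2 (6.31 ± 2.17) for G1/S control. Lig1, the ligase that seals Okazaki fragments, averaged 26.04 ± 16.96 TPM and the flap nuclease Fen1 20.7 ± 6.31 TPM, while the chromatin assembly subunits Chaf1a and Chaf1b averaged 18.1 ± 9.52 and 10.2 ± 3.73 TPM. Of all neighbours in the order of the vehicle means, only Rfc5 over Pola2 and Cdc6 over Orc1 had libraries that did not overlap. Pold1, the catalytic subunit of polymerase delta, was at 105, 22.04 and 5.73 TPM in vehicle replicates 1, 2 and 3, so its mean rests on replicate 1, whereas Pole, that of polymerase epsilon, was at 2.81, 3.75 and 5.46 TPM. Rfc4, a clamp loader subunit, and Dut, which clears dUTP, averaged 7.87 ± 2.08 and 21.1 ± 6.89 TPM.

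Promoter letters were not used to choose the members. E2F-like motifs, searched as TTTCCCGC, TTTGGCGC, TTTCGCGC and TTTGCCGC on both strands of RefSeq windows that run from 250 bases before to 50 after a gene's start (GRCm38.p6), were found in 15 of the 34 members with a window (44.1%), against 2.60% of 27025 genes with a window. Matches of the 4 motifs overlapped each other in the windows of Mcm5 and Mcm6. The CHR-like motif TTTGAA, which marks many mitotic promoters, was in 14.7% of the members with a window, against 76.2% of 21 mitosis and G2/M genes and 20.2% of all genes. The stretches printed here, each ending 1 base before a RefSeq start, are those of 3 genes that were lower in the H2O2 libraries than in vehicle (Cdc6, Cdk2 and Uhrf1), of Mcm6, which holds 3 matches, and of Mcm7, the 1 member that was higher. Those of Cdc6, Uhrf1 and Mcm7 lie inside the gene as GENCODE annotates it, downstream of its outermost start. Uhrf1 and Mcm7 each have another window, not printed, that held no match. Capitals mark E2F-like matches, on either strand.
Cdc6, chr11:98908003-98908150, plus strand: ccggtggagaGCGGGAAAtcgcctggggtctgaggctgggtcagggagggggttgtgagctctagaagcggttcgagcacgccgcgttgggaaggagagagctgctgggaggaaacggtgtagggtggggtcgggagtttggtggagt
Cdk2, chr10:128705052-128705201, minus strand: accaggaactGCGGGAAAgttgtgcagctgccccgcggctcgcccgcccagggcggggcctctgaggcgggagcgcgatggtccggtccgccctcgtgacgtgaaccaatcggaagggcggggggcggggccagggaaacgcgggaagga
Uhrf1, chr17:56304118-56304312, plus strand: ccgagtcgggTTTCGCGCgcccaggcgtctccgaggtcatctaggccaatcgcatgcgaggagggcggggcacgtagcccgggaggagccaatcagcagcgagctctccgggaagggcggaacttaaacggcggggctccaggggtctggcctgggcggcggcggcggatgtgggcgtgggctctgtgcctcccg
Mcm6, chr1:128359706-128359825, minus strand: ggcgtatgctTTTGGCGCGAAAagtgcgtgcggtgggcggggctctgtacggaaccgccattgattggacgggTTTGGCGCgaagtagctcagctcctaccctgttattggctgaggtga
Mcm7, chr5:138171884-138172058, minus strand: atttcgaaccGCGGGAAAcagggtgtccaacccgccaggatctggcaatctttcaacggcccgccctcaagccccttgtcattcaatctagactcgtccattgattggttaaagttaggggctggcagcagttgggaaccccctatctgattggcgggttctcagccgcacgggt
The same 8 letters, GCGGGAAA, stand in capitals in Cdc6, Cdk2 and Mcm7, 138, 140 and 165 bases before the start. They also occur in windows of Gins3, Mcm3, Pold1 and Rfc3, which did not pass between H2O2 and vehicle. The Mcm7 window holds a further match, TTTCGCGC, 16 bases past the start. Whether these letters bear on the H2O2 response was not tested. Among members that passed the test between H2O2 and vehicle 5 of 9 with a window held an E2F-like match (55.6%), and among those that did not 10 of 25 (40.0%). A match is a run of letters, and no binding was measured.

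The first question was what 6 h of H2O2 did to these transcripts in cells that had received vehicle. Of the 41 genes, 11 (26.8%) fell and 1 (2.44%) rose in H2O2 against vehicle at an edgeR adjusted p under 0.05, beside 7.84% of all genes tested that were lower and 7.81% that were higher, and 29 did not pass. The genes that fell were Cdc6, Mcm2, Rfc2, Pole, Tk1, Chaf1b, Uhrf1, E2f2, Ccne1, Ccne2 and Cdk2, and the gene that rose was Mcm7. The fitted log2 fold change was below 0 for 34 of the 41, with a median of -0.45, against a median of -0.06 over all genes tested. In these bulk libraries fewer cells of a type and less RNA per cell cannot be told apart. Ccne1, Chaf1b, Mcm7 and Tk1 passed in every alternative setting that left more than 1 library in each group, where 5 to 15 members passed. The setting without the 3 libraries that stand apart left vehicle 1 library and is not counted here. Cdc6 and Pole did not pass with no filter, with only the 2 groups fitted, with a replicate block or with limma on TPM. Without H2O2 replicate 1 the number that fell was 7.

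**Figure D1:**
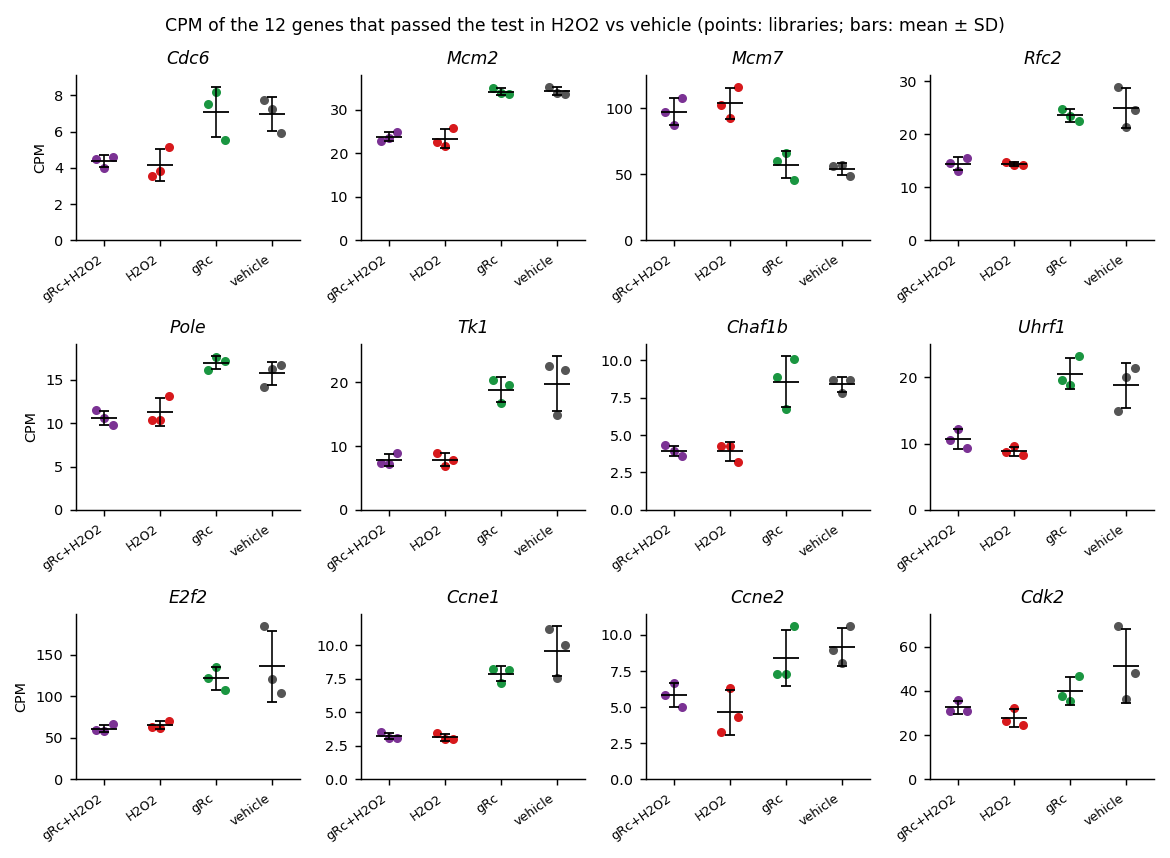
CPM (vertical axes, from 0) of the 12 genes that passed the test between H2O2 and vehicle, in the gRc+H2O2, H2O2, gRc and vehicle libraries. Points are libraries, with replicates 1 to 3 from left to right, and bars the mean ± SD (n = 3): Mcm7 sits between 87.1 and 116 CPM with H2O2 and between 45.8 and 65.9 CPM without, and Ccne1 shows the opposite order.

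Of the 5 members of G1/S control 4 fell, beside 7.84% of all genes tested, and Ccne1 had the largest fold change of the 41. Among 26 other G1/S regulators tested 5 fell and 2 rose. Ccne1 (ENSMUSG00000002068) encodes cyclin E1, which drives Cdk2 at the start of S phase. It was at 3.45, 3.02 and 2.98 CPM in H2O2 replicates 1, 2 and 3, against 11.2, 7.54 and 10.02 CPM in vehicle. The groups did not overlap, as was so in this direction for 15.2% of all genes tested. The log2 fold change was -1.60 (SE 0.18, edgeR adjusted p = 0.000333). Ccne2, the second cyclin E gene, was at 3.26, 6.31 and 4.34 CPM in H2O2, against 8.93, 8.02 and 10.6 CPM in vehicle, a log2 fold change of -0.98 (SE 0.26, edgeR adjusted p = 0.0266). Their partner kinase gene Cdk2 was at 26.5, 32.3 and 24.6 CPM in H2O2, against 69.5, 36.3 and 48.4 CPM in vehicle, where replicate 1 was the high library and replicate 2 lay close to the H2O2 range (-0.88, SE 0.22, edgeR adjusted p = 0.022, on the log2 scale). E2f2, an activator E2F, was at 63.5, 61.8 and 70.7 CPM in H2O2, against 185, 121 and 104 CPM in vehicle, again highest in replicate 1, with a log2 fold change of -1.06 (SE 0.20, edgeR adjusted p = 0.00547). E2f1, the other activator of the list, did not pass: it was at 22.7, 22.2 and 25.7 CPM in H2O2, against 33.1, 32.6 and 16.98 CPM in vehicle, and vehicle replicate 3 was the lowest of the 6 libraries.

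Among the nucleotide enzymes Tk1 stood out. Tk1 is thymidine kinase, the salvage enzyme whose level follows S phase, and it was at 8.95, 6.82 and 7.82 CPM in H2O2, against 22.6, 14.9 and 21.97 CPM in vehicle, without overlap (log2 fold change -1.33, SE 0.19, edgeR adjusted p = 0.00151). Rrm1 was at 91.6, 96.9 and 109 CPM in H2O2, against 146, 158 and 122 CPM in vehicle. For 15.2% of all genes tested every H2O2 library lay below every vehicle library, as for Tk1 and Rrm1. The test of Rrm1 missed the threshold (-0.52, SE 0.17, edgeR adjusted p = 0.0565, on the log2 scale). Rrm2, the partner subunit of Rrm1, had overlapping groups, 129.9, 139.8 and 127 CPM in H2O2 and 152, 150.2 and 119 CPM in vehicle, a log2 fold change of -0.09 (95% interval -0.37 to 0.20). Tyms, the thymidylate synthase, and Dut had log2 fold changes of -0.35 (edgeR adjusted p = 0.168) and 0.26 (edgeR adjusted p = 0.584). Rrm2b, the reductase subunit used outside S phase and under stress, did not pass either, at 14.3, 18.3 and 13.8 CPM in H2O2 and 10.6, 17.3 and 29.9 CPM in vehicle.

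Of the 3 members of chromatin assembly and methylation copying 2 fell, beside 7.84% of all genes tested. Chaf1b was at 4.29, 4.24 and 3.19 CPM in H2O2, against 8.65, 7.78 and 8.70 CPM in vehicle (log2 fold change -1.10, SE 0.19, edgeR adjusted p = 0.00392). Uhrf1, which brings the maintenance methyltransferase to newly copied DNA, was at 8.67, 9.63 and 8.27 CPM in H2O2, against 14.9, 19.99 and 21.4 CPM in vehicle (log2 fold change -1.08, SE 0.18, edgeR adjusted p = 0.00259). In both genes every H2O2 library lay below every vehicle library, a position held by 15.2% of all genes tested. Chaf1a, the partner of Chaf1b, had overlapping groups, with 35.3, 26.7 and 39.6 CPM in H2O2 and 58.96, 41.9 and 16.3 CPM in vehicle.

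Origin licensing split. Cdc6 was at 3.54, 3.80 and 5.17 CPM in H2O2, against 7.76, 7.23 and 5.92 CPM in vehicle (log2 fold change -0.74, SE 0.21, edgeR adjusted p = 0.0375). Mcm2 was at 22.6, 21.6 and 25.8 CPM in H2O2, against 35.3, 33.8 and 33.6 CPM in vehicle (log2 fold change -0.55, SE 0.11, edgeR adjusted p = 0.00869). Mcm7 went the other way: it was at 103, 92.8 and 116 CPM in H2O2, against 56.02, 57.4 and 48.7 CPM in vehicle, and rose by a log2 fold change of 0.95 (SE 0.16, edgeR adjusted p = 0.00352). The other 4 ring subunits did not pass, with log2 fold changes of 0.06 for Mcm3, -0.19 for Mcm4, -0.25 for Mcm5 and -0.63 for Mcm6. Mcm6 was at 50.9, 41.6 and 44.1 CPM in H2O2, against 97.7, 64.5 and 49.1 CPM in vehicle, so 1 vehicle library lay within the H2O2 range. The loader genes Orc1, Orc6 and Cdt1 had log2 fold changes of 0.07, 0.28 and 0.32, none past the threshold.

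Per length, Mcm7 changed its place within the ring genes. It made up between 48.2% and 55.9% of the summed TPM of Mcm2 to Mcm7 in the 6 libraries with H2O2, and between 24.6% and 30.6% in the 6 without. Its TPM was 4.66 to 6.33 times the mean of the other 5 subunits with H2O2, and 1.64 to 2.20 times without. The summed TPM of the 6 subunits overlapped, at 199.7 to 231 with H2O2 and 124 to 226 without, where vehicle replicate 3 and gRc replicate 3 were the lowest. RSEM's mean transcript length for Mcm7, weighted by the abundance of its annotated transcripts, was 1437 to 1630 bases with H2O2 and 1584 to 2090 bases without. A shorter length raises TPM at equal counts, and the CPM values above do not depend on it. Mcm7 (ENSMUSG00000029730, chromosome 5, bases 138164583 to 138172422 of GRCm38, minus strand) overlaps Ap4m1 by 421 bases and Cops6 by 64 bases, both on the opposite strand, and the sources do not say whether reads were counted by strand. In H2O2 against vehicle Ap4m1 had a log2 fold change of 0.55 (edgeR adjusted p = 0.0640) and Cops6 had -0.34 (edgeR adjusted p = 0.594). The miRNA genes Mir25, Mir93 and Mir106b lie inside Mcm7 on its own strand and were not among the genes tested.

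**Figure D2:**
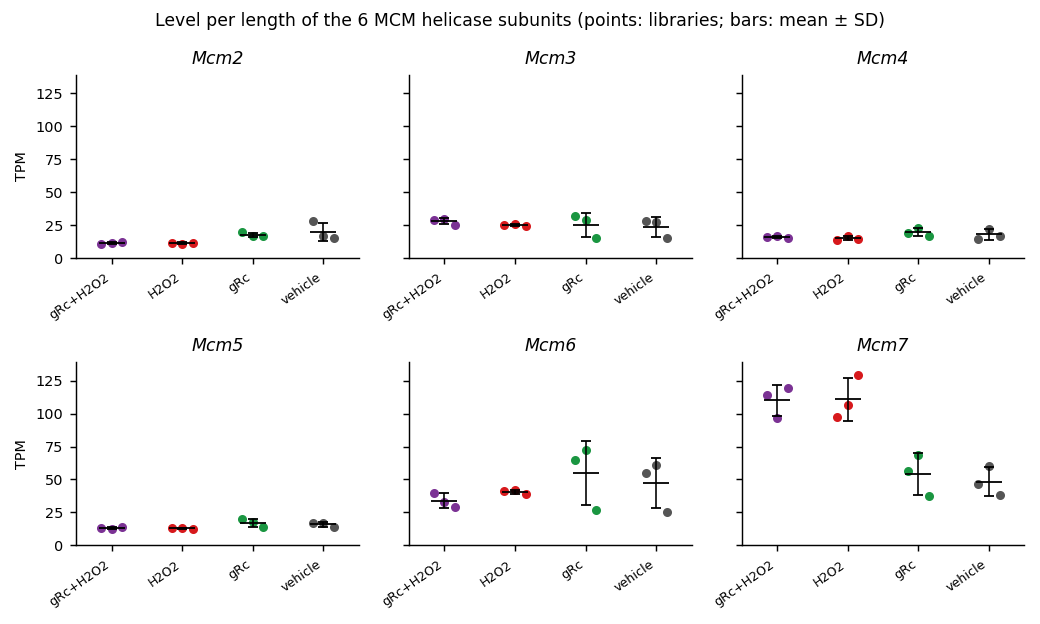
TPM (vertical axes, shared, from 0) of the 6 subunits of the MCM helicase ring in the gRc+H2O2, H2O2, gRc and vehicle libraries. Points are libraries and bars the mean ± SD (n = 3): Mcm7 averages 110.0 ± 11.8 TPM in gRc+H2O2 and 111 ± 16.4 TPM in H2O2, against 54.1 ± 15.8 TPM in gRc and 48.5 ± 11.3 TPM in vehicle.

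At the fork Rfc2 and Pole fell and the other genes did not pass. Rfc2, a subunit of the loader that places Pcna on DNA, was at 14.7, 14.2 and 14.1 CPM in H2O2, against 28.95, 21.3 and 24.6 CPM in vehicle (log2 fold change -0.80, SE 0.14, edgeR adjusted p = 0.00394). The other loader genes Rfc3, Rfc4 and Rfc5 had log2 fold changes of -0.44, -0.49 and -0.51 and did not pass. Pcna itself was at 37.8, 45.6 and 35.95 CPM in H2O2 and 23.96, 36.2 and 72.3 CPM in vehicle, where the replicates spread over a wider range than the H2O2 libraries. Pole was at 10.3, 10.4 and 13.1 CPM in H2O2, against 14.2, 16.3 and 16.7 CPM in vehicle (log2 fold change -0.48, SE 0.14, edgeR adjusted p = 0.0453), the smallest of the 12 changes that passed. The polymerase alpha and primase genes Pola1, Pola2 and Prim1 had log2 fold changes of -0.22, -0.24 and -0.65, Pold1 had -0.54, and the joining genes Fen1 and Lig1 had -0.14 and -0.62. None of these passed. No gene of helicase activation passed in H2O2 against vehicle: the 5 genes Cdc45, Gins1, Gins2, Gins3 and Gins4 lay between -0.62 and -0.11 on the log2 scale, and Mcm10, a scaffold of the starting fork, at 0.38 (edgeR adjusted p = 0.134).

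The same treatment step could also be read in cells that had received gRc, with no library in common. In gRc+H2O2 against gRc, again 11 of the 41 genes (26.8%) fell and 1 (2.44%) rose, beside 8.15% of all genes tested that were lower and 7.57% that were higher. The median log2 fold change was -0.45, against -0.04 over all genes. Mcm7 was the gene that rose, at 97.6, 87.1 and 108 CPM in gRc+H2O2, against 60.5, 65.9 and 45.8 CPM in gRc (0.77, SE 0.16, edgeR adjusted p = 0.00946, on the log2 scale). Ccne1 was at 3.53, 3.09 and 3.09 CPM in gRc+H2O2, against 8.27, 7.23 and 8.19 CPM in gRc (-1.28, SE 0.18, edgeR adjusted p = 0.00115), and Tk1 at 7.34, 7.13 and 8.86 CPM in gRc+H2O2, against 20.4, 16.7 and 19.5 CPM in gRc (-1.28, SE 0.19, edgeR adjusted p = 0.00169). The log2 fold changes of Chaf1b, Uhrf1 and E2f2 were -1.12 (edgeR adjusted p = 0.0034), -0.94 (edgeR adjusted p = 0.00505) and -0.99 (edgeR adjusted p = 0.00724). Those of Rfc2, Pole, Mcm2 and Cdc6 were -0.71 (edgeR adjusted p = 0.00692), -0.67 (edgeR adjusted p = 0.0102), -0.52 (edgeR adjusted p = 0.0114) and -0.70 (edgeR adjusted p = 0.0465). These 10 genes, 83.3% of the calls in each comparison, passed in both, all in the same direction, beside 77.0% and 76.7% for all genes tested. Gins2, a subunit of GINS, and Rrm1 passed here, at -0.57 (edgeR adjusted p = 0.044) and -0.63 (edgeR adjusted p = 0.0253), and not in H2O2 against vehicle. Ccne2 and Cdk2 did not pass here, at -0.52 (edgeR adjusted p = 0.211) and -0.29 (edgeR adjusted p = 0.441). Without vehicle replicates 1 and 3 and gRc replicate 3, the libraries that stood apart, gRc is left with 2 libraries, and 23 members fell and 2 rose in gRc+H2O2 against gRc, in a setting that also called more of all genes (16.6% lower and 16.8% higher). Without gRc+H2O2 replicate 1 or 2 the number that fell was 7, and without replicate 3 Mcm7 did not pass.

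**Figure D3:**
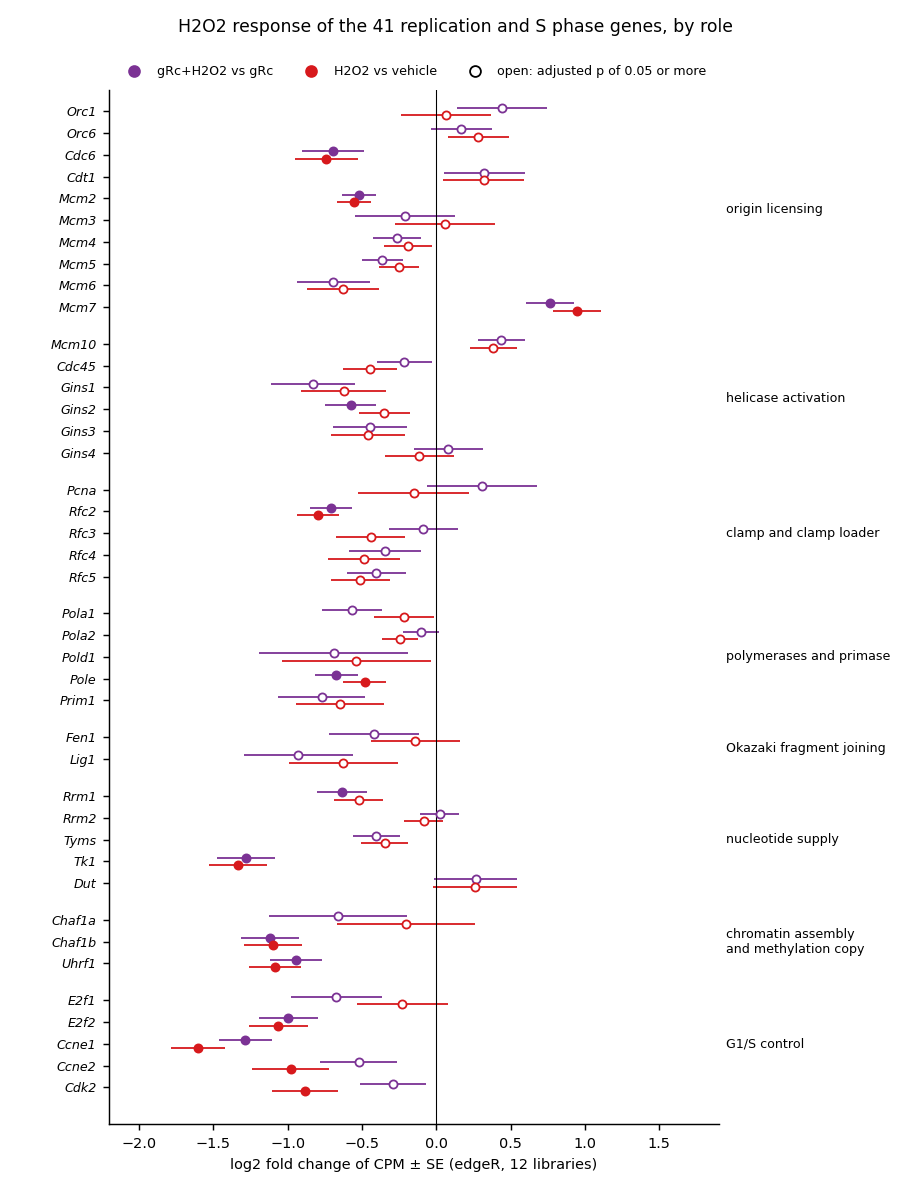
Log2 fold change of CPM (horizontal axis, ± SE, edgeR fit of 12 libraries) of the 41 genes, ordered by role down the page, for gRc+H2O2 vs gRc (upper point of each pair) and H2O2 vs vehicle (lower point). Filled points passed an adjusted p of 0.05: 12 in each comparison, Mcm7 at the right and Ccne1 farthest to the left in both.

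Both H2O2 groups together against both groups without, a contrast in the same fit that was added after the data were seen, set 6 libraries against 6. The fit treated them as independent, although same-numbered gRc and vehicle libraries deviated together (correlations of 0.437, 0.267 and 0.846). It called 20 of the 41 genes lower (beside 16.4% of all genes tested) and 2 higher (beside 14.6%). Beyond the genes already named, Mcm5, Mcm6, Gins1, Rfc5, Prim1, Lig1 and Tyms were lower and Mcm10 was higher. Mcm10 was at 8.50, 7.57 and 8.94 CPM in gRc+H2O2 and 8.30, 8.005 and 8.40 CPM in H2O2, against 6.73, 6.42 and 5.36 CPM in gRc and 6.27, 7.16 and 5.53 CPM in vehicle, a log2 difference of 0.41 (SE 0.11, edgeR adjusted p = 0.0174). Gins1 was at 1.77, 1.58 and 1.13 CPM in gRc+H2O2 and 1.63, 1.66 and 1.37 CPM in H2O2, against 3.60, 2.07 and 2.31 CPM in gRc and 2.05, 2.04 and 3.07 CPM in vehicle (-0.73, SE 0.20, edgeR adjusted p = 0.0185), and it was among the least expressed members. Lig1 differed by -0.78 (SE 0.26, edgeR adjusted p = 0.0416), Prim1 by -0.71 (SE 0.21, edgeR adjusted p = 0.0239) and Mcm6 by -0.66 (SE 0.17, edgeR adjusted p = 0.0134) on the log2 scale. Mcm5, Rfc5 and Tyms differed by -0.31, -0.46 and -0.38. Of the genes beyond those already named, only Gins1 passed in every setting. Mcm5, Mcm6, Lig1 and Tyms did not pass with limma on TPM. Lig1 also did not pass when vehicle replicate 1 or any gRc+H2O2 library was left out. In CPM, every library with H2O2 lay below every library without for 13 genes (beside 10.1% of all genes tested), and above for Mcm7 and Mcm10 (beside 10.4%). Per length Mcm10 overlapped, at 4.88 to 8.55 TPM with H2O2 and 2.86 to 8.09 TPM without. Mcm10 did not pass with no filter, with limma on TPM, without gRc+H2O2 replicate 3 or without the 3 libraries that stand apart. The last of these settings left vehicle 1 library. The 13 were Cdc6, Mcm2, Mcm5, Gins1, Rfc2, Pole, Rrm1, Tk1, Chaf1b, Uhrf1, E2f2, Ccne1 and Ccne2.

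The second question was whether gRc changed these genes. In gRc+H2O2 against H2O2, none of the 41 passed the edgeR test, beside 0% of all genes tested that were higher and 0% that were lower, and none of the 41 reached an unadjusted p of 0.05 (122 of all genes did). DESeq2 called none of the 41 either, and of all genes 1 higher and 1 lower. The log2 fold changes ran from -0.55 for Pold1 to 0.41 for Pcna, with a median of 0.0061. For 36 of the 41 genes, and for all 12 that passed in H2O2 against vehicle, the 95% interval lay within a 2-fold change either way. The smallest unadjusted p belonged to Uhrf1, at 10.6, 12.2 and 9.28 CPM in gRc+H2O2 and 8.67, 9.63 and 8.27 CPM in H2O2, a log2 fold change of 0.27 (95% interval -0.12 to 0.65). Its direction turned on TPM, with means of 6.27 TPM in gRc+H2O2 and 7.75 TPM in H2O2 and a log2 difference of -0.28 with limma. Rfc5, Ccne2 and Lig1 came next, with log2 fold changes of 0.26 (95% interval -0.17 to 0.70), 0.33 (95% interval -0.24 to 0.90) and -0.43 (95% interval -1.24 to 0.37), and Rfc5 too turned with limma on TPM, to -0.083. Libraries of these groups did not overlap for Cdc45 and Pola2, which were higher in gRc+H2O2 (beside 7.69% of all genes), and for E2f1, which was lower (beside 7.62%). Cdc45 was at 8.04, 7.01 and 7.02 CPM in gRc+H2O2 and 6.25, 6.82 and 6.25 CPM in H2O2, and E2f1 at 16.97, 17.7 and 20.3 CPM in gRc+H2O2 and 22.7, 22.2 and 25.7 CPM in H2O2. For Ccne1, Tk1 and Mcm7, which passed in both H2O2 comparisons, the values in gRc+H2O2 against H2O2 were 0.04 (95% interval -0.36 to 0.44), -0.01 (95% interval -0.44 to 0.41) and -0.09 (95% interval -0.45 to 0.26) on the log2 scale.

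In gRc against vehicle 0 of 41 genes passed the edgeR test in either direction, beside 0% of all genes tested, and none had an unadjusted p under 0.05 (74 of all genes did). DESeq2 called none of the 41 and none of all genes. The log2 fold changes ran from -0.40 for Pold1 to 0.36 for Prim1, with a median of -0.0030. The 95% interval lay within a 2-fold change for 38 of the 41. The smallest unadjusted p values were those of Cdk2, at 37.7, 35.3 and 46.9 CPM in gRc and 69.5, 36.3 and 48.4 CPM in vehicle (-0.36, 95% interval -0.85 to 0.13), and Ccne1 (-0.28, 95% interval -0.67 to 0.11), followed by Gins2 (0.23, 95% interval -0.14 to 0.61) and Pola1 (0.26, 95% interval -0.18 to 0.70). Vehicle replicate 1 is the library that stands highest in Cdk2 and Ccne1. These 2 comparisons with gRc share no library with each other, but each shares a group with a comparison of H2O2.

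**Figure D4:**
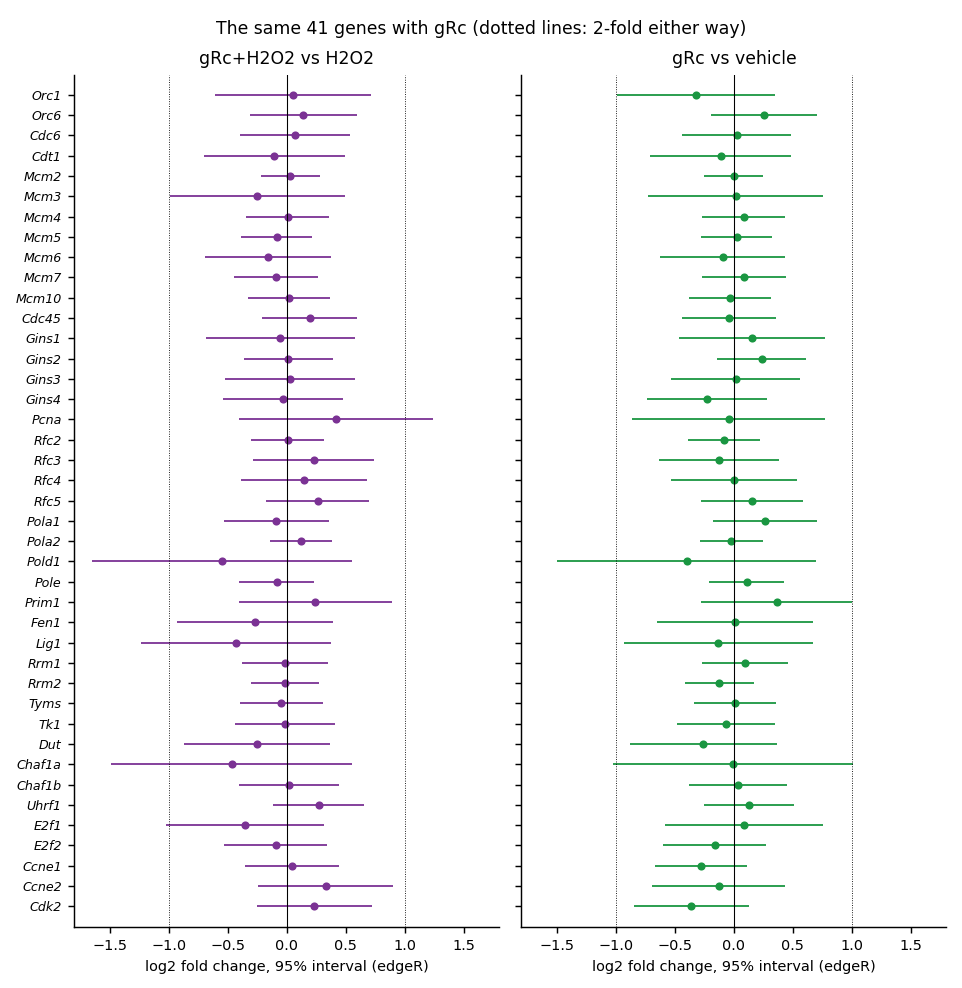
Log2 fold change with its 95% interval (horizontal axes, edgeR fit of 12 libraries) of the 41 genes in gRc+H2O2 vs H2O2 (left) and gRc vs vehicle (right), with dotted lines at a 2-fold change either way. Every interval spans 0, and those of Pold1, Chaf1a, Pcna and Lig1 are among the widest.

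Whether the H2O2 response differed with gRc was tested as the interaction of both treatments. No member passed the edgeR test (0 of 41, beside 0% of all genes tested higher and 0% lower), and none had an unadjusted p under 0.05 (87 of all genes did). DESeq2 called none of the 41, and of all genes none higher and 1 lower. The largest difference was that of Cdk2, whose response was -0.29 in gRc-treated cells and -0.88 in vehicle-treated cells, a difference of 0.59 (95% interval -0.10 to 1.28) on the log2 scale, with the smallest unadjusted p of the 41. Ccne1 and Ccne2 had the next smallest p, with differences of 0.32 (95% interval -0.24 to 0.88) and 0.46 (95% interval -0.34 to 1.26). For Gins2 and Rrm1, which passed in gRc+H2O2 against gRc and not in H2O2 against vehicle, the differences were -0.22 (95% interval -0.76 to 0.31) and -0.11 (95% interval -0.63 to 0.40). The interval lay within a 2-fold difference for 28 of the 41 genes, and for the others it reached beyond that size with 3 libraries a group.

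Other genes of the same processes gave a background for the 41. Of 38 further fork and origin genes 3 rose and 2 fell in H2O2 against vehicle, shares near those of all genes tested (7.81% higher and 7.84% lower). The origin firing genes Mtbp and Recql4 rose by 1.40 (edgeR adjusted p = 0.00247) and 1.11 (edgeR adjusted p = 0.00386) on the log2 scale and the origin recognition subunit Orc2 by 0.72 (edgeR adjusted p = 0.00259), while Pclaf, a partner of Pcna, and the origin kinase Cdc7 had log2 fold changes of -1.32 (edgeR adjusted p = 0.00545) and -1.01 (edgeR adjusted p = 0.00853). Of 17 further nucleotide genes 4 rose and none fell: Shmt2, which feeds the folate cycle, at 0.87 (edgeR adjusted p = 0.00333), Impdh2 of GTP synthesis at 0.51 (edgeR adjusted p = 0.0187), Ppat of purine synthesis at 0.84 (edgeR adjusted p = 0.0194) and the CTP synthase Ctps at 0.94 (edgeR adjusted p = 0.0467). Of 10 further chromatin copying genes the kinase Tlk2 rose (0.94, edgeR adjusted p = 0.00792) and its target, the histone chaperone Asf1b, fell (-1.40, edgeR adjusted p = 0.016). Among 26 further G1/S regulators tested 2 rose and 5 fell. Cyclin D genes split, with Ccnd2 at 1.26 (edgeR adjusted p = 0.00304) and Ccnd1 at 0.64 (edgeR adjusted p = 0.0181) against Ccnd3 at -1.19 (edgeR adjusted p = 0.0209), while Ccna2, the S phase cyclin A, was at -0.85 (edgeR adjusted p = 0.00337), the repressor E2f7 at -0.85 (edgeR adjusted p = 0.00678), the inhibitor Cdkn2d at -0.92 (edgeR adjusted p = 0.00587) and the pocket protein gene Rbl1 at -0.64 (edgeR adjusted p = 0.0318). Cdkn1a, the inhibitor that p53 controls, was among the abundant genes in both groups, 2001, 2238 and 2621 CPM in H2O2 and 2512, 1867 and 1778 CPM in vehicle, and did not pass (0.16, edgeR adjusted p = 0.628). Mki67 and Top2a, which mark cycling cells, did not pass, at -0.77 (edgeR adjusted p = 0.165) and -0.09 (edgeR adjusted p = 0.779).

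Lists for mitosis and for other cell states were read beside the 41 genes. Of 24 mitosis and G2/M genes 7 fell and none rose in H2O2 against vehicle (beside 7.84% of all genes tested lower), with the spindle motor Kif11 at -0.61 (edgeR adjusted p = 0.00486), the centromere histone Cenpa at -0.82 (edgeR adjusted p = 0.00547), the cyclin Ccnb2 at -1.31 (edgeR adjusted p = 0.0133) and the cytokinesis motor Kif20a at -0.75 (edgeR adjusted p = 0.0193) on the log2 scale. Of 10 markers of myoblasts and reserve cells 5 fell (beside the same 7.84%): the Notch target Heyl (-2.45, edgeR adjusted p = 0.000333), Id3 (-1.66, edgeR adjusted p = 0.0013), Vcam1 (-0.89, edgeR adjusted p = 0.00293), the satellite cell factor Pax7 (-1.27, edgeR adjusted p = 0.00352) and Myod1 (-0.51, edgeR adjusted p = 0.0493). Their summed TPM ranged from 301 to 327 in gRc+H2O2 and 309 to 424 in H2O2, against 366 to 492 in gRc and 339 to 661 in vehicle. None of 12 differentiated muscle markers passed in H2O2 against vehicle (2 with an unadjusted p under 0.05), with summed TPM of 20041 to 26221 in gRc+H2O2, 17057 to 27077 in H2O2, 22026 to 29466 in gRc and 17749 to 28928 in vehicle, and none of 7 tested fibroblast-like markers did (none with an unadjusted p under 0.05), although all 7 were below 0 with a median log2 fold change of -0.62, with summed TPM of 1706 to 2151 in gRc+H2O2, 2069 to 3709 in H2O2, 2029 to 4569 in gRc and 1811 to 10015 in vehicle. In gRc+H2O2 against gRc, 9 mitosis genes, 4 markers of myoblasts and reserve cells and 2 of differentiated muscle (Ttn and Myh8) fell, beside 8.15% of all genes tested, and none of the 3 lists had a gene that rose. In both H2O2 groups against both without, 1 of 7 tested fibroblast-like markers was lower, beside 16.4% of all genes tested. In that contrast 13 of 24 mitosis genes, 5 of 10 markers of myoblasts and reserve cells and 3 of 12 of differentiated muscle were lower. The part of these shifts in the result for the 41 genes was not tested.

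**Figure D5:**
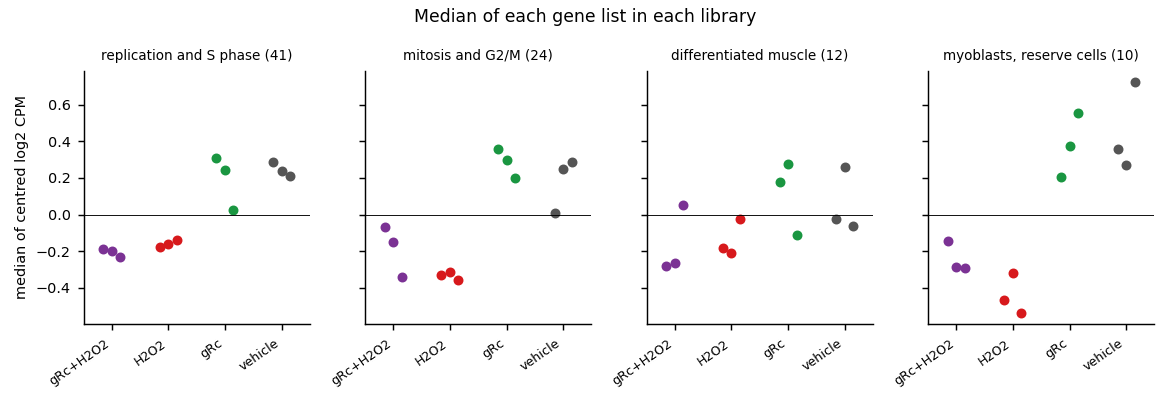
Median over a gene list of log2 CPM centred on each gene's mean over the 12 libraries (vertical axis, shared), in the gRc+H2O2, H2O2, gRc and vehicle libraries (points, replicates 1 to 3 from left to right), for the 41 replication and S phase genes, mitosis and G2/M genes, differentiated muscle markers and markers of myoblasts and reserve cells. The 41 genes lie between -0.23 and -0.14 with H2O2 and between 0.02 and 0.31 without.

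Overlapping genes bear on a few values where reads of both strands may have been counted together. Of the 41 members 20 overlap another annotated gene and 14 a gene that was tested. Rfc2 overlaps Lat2, Ccne2 overlaps Ints8 and Tk1 overlaps Afmid and, over 10567 bases, Gm20708 on the opposite strand. These neighbours (Lat2, Ints8, Afmid and Gm20708) had log2 fold changes of 0.22, -0.08, -0.11 and 0.25 in H2O2 against vehicle, none past the threshold. Lat2 and Gm20708 were low and imprecise (SE 0.42 and 1.27), so for these genes not passing says little. Eif4a2, which overlaps Rfc4 by 194 bases on the opposite strand, rose by 0.65 in H2O2 against vehicle (edgeR adjusted p = 0.0400) and by 0.72 in gRc+H2O2 against gRc (edgeR adjusted p = 0.0263), while Rfc4 itself had -0.49 and -0.35 and did not pass. Gins2 and Cdt1 both overlap Gm20388, a gene model on the strand of Cdt1, so their reads could be split with it. Gm20388 had a log2 fold change of 0.70 (SE 1.52) in H2O2 against vehicle and did not pass.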

How the data were processed

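Poly(A) RNA of 12 libraries of C2C12 cells (4 groups of 3) was sequenced after a directional library preparation. Per the labels and the study's methods, the authors trimmed adapters with Trim Galore, aligned with STAR 2.7.3a to GRCm38 (mm10) and quantified genes with RSEM 1.3.3. The deposited expected counts are the authors' RSEM estimates, in which reads shared between genes are divided among them. The deposited TPM values divide these by effective length, and RSEM's mean transcript length was read from the same tables. The strand setting is not given in the sources used here.

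Expected counts were rounded, filtered with filterByExpr, scaled with TMM factors and tested with edgeR 4.0.16 (quasi-likelihood, R 4.3.3) in 1 fit of 12 libraries, with Benjamini-Hochberg adjustment over 14838 genes and a threshold of 0.05. Standard errors are the log2 fold change over the square root of F. Total counts ran from 19274762 to 31409066, and the common biological coefficient of variation was 0.295.

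The members and gene lists were chosen with earlier results of these data known. The genes named are every member that passed in a comparison or, where none did, the 4 with the smallest p (3 in the interaction), the 4 with the smallest p among those that passed in each other list, the highest and lowest members of each role by TPM, and Rrm2b, Cdkn1a, Ccnd1, Ccna2, Mki67 and Top2a. Cdc7, Ccnd3, Rbl1, Myod1, Ttn and Myh8 and members outside this rule were named after their values were seen.

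Alternatives were DESeq2 1.42.0, RLE size factors, no filter, a minimum of 10 counts in every library, only the 2 groups compared, a replicate block, limma 3.58.1 on log2(TPM + 0.5), GC offsets (a spline of 5 df) with and without the block, and leaving out libraries. Same-numbered gRc and vehicle libraries deviated together (correlations of 0.437, 0.267 and 0.846), and the block changed no call there. Gene positions are those of GENCODE vM21 (GRCm38), promoter letters those of RefSeq (GRCm38.p6).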

Additional observations from a re-analysis of the deposited data

How the results depend on the processing

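Settings moved the number of members that passed more than their direction. In H2O2 against vehicle, Mcm7 rose in every setting, while 11 members fell with all 12 libraries, 4 with only the 2 groups fitted, 6 with limma on log2(TPM + 0.5) and 7 to 14 with 1 library left out (1 higher throughout). In gRc+H2O2 against gRc, 1 rose and 11 fell, against 2 higher with DESeq2, 7 lower with no filter, 6 lower with limma, 2 higher and 23 lower without the 3 libraries that stand apart (where 16.8% of all genes were higher and 16.6% lower), and 0 to 1 higher and 7 to 14 lower with 1 library left out. In both H2O2 groups against both without, 2 were higher and 20 lower, against 1 higher with no filter and with limma, and 1 to 3 higher and 16 to 23 lower with 1 library left out. The cause of these shifts was not tested.

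In the gRc comparisons and the interaction 0 members passed in every setting run. Directions turned for genes that had not passed: Rrm2b in H2O2 against vehicle was at 0.0083 with limma and between -0.60 and 0.13 (without vehicle replicate 3) with 1 library left out, and Top2a between -0.22 and 0.044 (without vehicle replicate 2). In gRc+H2O2 against H2O2 with limma, Uhrf1 was at -0.28 and Rfc5 at -0.083. In gRc against vehicle without the 3 libraries, Cdk2 was at 0.0024 and Ccne1 at 0.034, but vehicle is then left with replicate 2 alone.

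With the replicate block, 1 member was higher and 9 lower in H2O2 against vehicle, 1 and 10 in gRc+H2O2 against gRc, 2 and 21 in both H2O2 groups against both without, and 0 in the other comparisons. The main fit took the numbers as pairs in no comparison, gRc against vehicle included. Outside gRc against vehicle, same-numbered deviations correlated at 0.419, 0.284 and -0.260 (H2O2 and vehicle), 0.0770, 0.369 and 0.278 (gRc+H2O2 and H2O2) and 0.0176, -0.470 and -0.532 (gRc+H2O2 and gRc). With 3 libraries a group and unequal vehicle libraries, modest changes of low genes such as Orc1 were beyond the precision of these data.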
